A study of Sus scrofa with 36 samples.

Results

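The high and the medium dose of added lactoferrin were compared in the hippocampus of male piglets, with 12 high-dose arrays set against 12 medium-dose arrays out of 36 in the series. Arrays were chosen by their titles alone, 1.2 g/L or 0.6 g/L lactoferrin, and the remaining 12 arrays came from control piglets on milk replacer with no stated addition. All animals were Landrace×Large White crosses, bought from a commercial piggery at 3 days old, placed at random in the feeding groups, and sampled at day 38; they shared housing, a light cycle and fixed feeding times. Each sample also bore a set code from S1 to S5 that the labels leave undefined. High-dose samples numbered 2, 4, 2, 3 and 1 in S1 to S5, and medium-dose samples numbered 0, 4, 3, 3 and 2, so S1 held no medium-dose array. The labels do not say whether piglets were littermates, and p-values measure the spread between these samples.

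Lactoferrin is an iron-binding glycoprotein of milk that is taken up in the gut and has antimicrobial and immunomodulatory roles. In the hippocampus, a region needed for learning and memory, granule and pyramidal neurons are wired through pathways that oligodendrocytes wrap in myelin during early life. Interferons released on infection or inflammation bind surface receptors and, through STAT factors, switch on antiviral genes and the genes that load peptides on major histocompatibility complex molecules, which are called SLA in the pig. Brain endothelial cells, microglia and astrocytes all answer to interferon.

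Levels are the authors' RMA values on a log2 scale, on which a difference of 1 is a doubling, and every difference given is high dose minus medium dose with set code as a block. Of 23999 probe sets that are no array controls, 18006 passed a filter on dim values and were tested, and 8372 of these carried exactly 1 gene symbol, for 6034 genes. Marker genes of neurons (5 of 5 measured above the filter), astrocytes (5 of 5), oligodendrocytes (4 of 4) and microglia (3 of 3) were present. For the dentate gyrus and the Ammon's horn fields, only 2 of 7 markers were on the table, NEUROD1 and RGS14. The spike-in Dap was above log2 6 on 8 of 12 high-dose and 9 of 12 medium-dose arrays. The actin 3′ minus 5′ difference was 2.80 ± 0.40 and 3.05 ± 0.67 (SD, n = 12 each). It was 3.8, 4.1, 3.7 and 3.7 in medium-dose replicates 2, 4, 6 and 7, all in S2 or S3. High-dose and control arrays reached only 3.3, and the actin difference was not adjusted for. High-dose replicate 2, in S1, stood apart. Its mean correlation with the other arrays, 0.961, was the lowest of the high-dose group.

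No probe set differed between the high and the medium dose after adjustment. In limma's moderated test 0 of 18006 probe sets, or 0%, had an adjusted p under 0.05, and the smallest adjusted p was 0.285. At an unadjusted p under 0.05, 447 probe sets (2.48%) were higher and 629 (3.49%) were lower in the high-dose samples, 1076 (5.98%) in all, where 900.3 would be below that value by chance. The differences were small, with a median absolute value of 0.054, and 50.3% were above 0. Only 35 probe sets differed by 0.5 or more and 0 by 1 or more. The median half-width of the 95% interval was 0.144. For no probe set did the 12 high-dose values lie wholly above or below the 12 medium-dose values (0%).

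**Figure D1:**
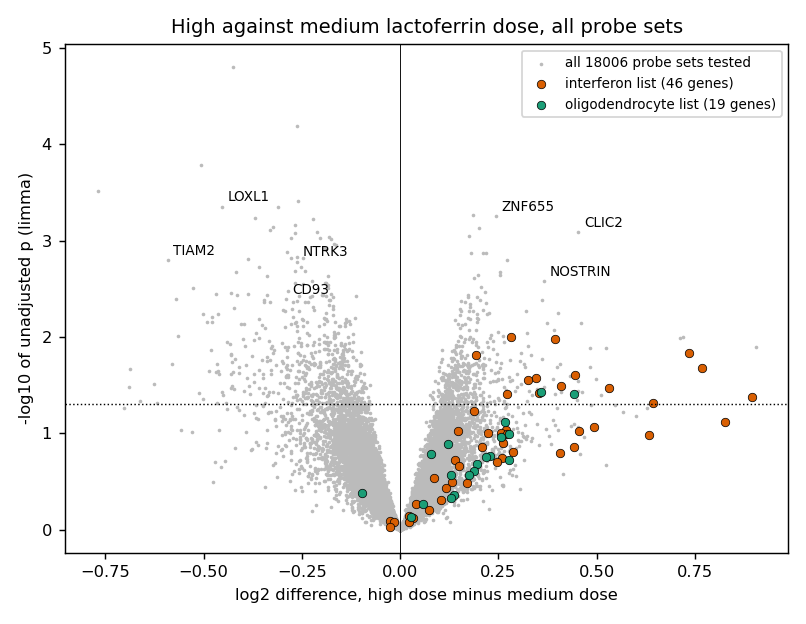
Log2 difference, high dose minus medium dose (x axis), against the −log10 of limma's unadjusted p (y axis) for 18006 probe sets in grey, with the 46 interferon and antigen presentation genes in orange and the 19 oligodendrocyte genes in green. The dotted line marks an unadjusted p of 0.05; 43 of the 46 orange points lie right of 0, and no point passed adjustment.

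The probe set with the smallest p had no gene name in the array annotation. It ran from 5.4 through a median of 5.7 to 6.0 in high-dose samples, against 5.6, 6.2 and 6.4 in medium-dose samples. It was 0.43 lower in the high-dose group (SE 0.084, adjusted p = 0.285), and lower in each of S2 to S5, by differences of −0.28, −0.45, −0.63 and −0.30. Controls averaged 5.82 ± 0.15 (SD, n = 12), between the means of the groups compared, 5.72 ± 0.20 and 6.13 ± 0.24. This unnamed probe set, singled out after its values were seen, had an adjusted p of 0.0072 without medium-dose replicate 11.

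Because fewer than 10 genes passed in either direction, the 15 named genes with the smallest unadjusted p in each direction are described. None passed, their adjusted p lying between 0.748 and 0.811, so the values stand as measurements and not as changes. On the higher side, CLIC2, a chloride channel-like protein known from endothelium, was 6.2, 6.4 and 7.4 (lowest, median, highest) in high-dose samples, against 5.9, 6.15 and 6.7 in medium-dose samples. Its difference was 0.45 (SE 0.12, adjusted p = 0.748), and all 12 high-dose values lay above the medium-dose median. The groups overlapped between 6.2 and 6.7, and the CLIC2 differences in S2 to S5 were 0.43, 0.22, 0.77 and 0.70. Among the 24 dosed samples, the 3 highest CLIC2 values, 7.3, 7.4 and 7.4, belonged to high-dose replicates 11, 10 and 12, and controls also reached 7.4.

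NOSTRIN, which binds endothelial nitric oxide synthase and moves it inside the cell, followed the same samples. It was 6.2, 6.5 and 7.3 in high-dose samples, against 5.9, 6.25 and 6.9 in medium-dose samples, a difference of 0.37 (SE 0.11). Among the 24 dosed samples, high-dose replicates 10, 11 and 12 again held the highest values, 7.2, 7.1 and 7.3, while controls averaged 6.77 and reached 7.5. ESAM, an adhesion molecule of endothelial junctions, differed by 0.22 through the probe set with the smallest p, and by 0.11 and 0.08 through its other 2. TAGLN2, an actin-binding protein, differed by 0.26 and RHOB, a small GTPase of endosomes, by 0.25, with all 4 RHOB probe sets above 0.

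ZNF655, a zinc-finger protein, had the smallest p on the higher side. It was 6.5, 6.65 and 6.9 in high-dose samples, against 6.3, 6.4 and 6.7 in medium-dose samples (difference 0.24, SE 0.064), and it lay higher in each of S2 to S5. CASP2, a caspase of the cell-death machinery, averaged 7.05 ± 0.12 in high-dose samples and 6.83 ± 0.16 in medium-dose samples (SD, n = 12 each), with a second probe set at −0.01. TMBIM6, an inhibitor of BAX-driven death in the endoplasmic reticulum, differed by 0.20, and its other 3 probe sets lay at 0.09, −0.05 and 0.07. CDK2, a cell-cycle kinase, and STAT5B, a signal transducer of cytokine and growth hormone receptors, were above 0 in all probe sets that named them, at 0.17 and 0.19 in the ones named here. PSMF1, a proteasome inhibitor, differed by 0.20. ABHD16A, a lipid hydrolase, differed by 0.16, MC2R, the adrenocorticotropin receptor, by 0.17, C8H4orf48 by 0.17 with a second probe set at −0.07, and LOC100526084 by 0.36.

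Among the 15 genes on the lower side, the difference furthest from 0 was that of TIAM2, an exchange factor for the small GTPase RAC. TIAM2 was 5.9, 6.95 and 7.5 in high-dose samples, against 6.8, 7.4 and 8.1 in medium-dose samples, a difference of −0.59 (SE 0.17, adjusted p = 0.779). It lay lower in each of S2 to S5, and the lowest value, 5.9, was shared by high-dose replicates 2 and 7. The groups overlapped between 6.8 and 7.5. LOXL1, an enzyme that crosslinks elastin and collagen, was 5.4, 6.0 and 6.3 in high-dose samples, against 5.9, 6.35 and 6.7 in medium-dose samples, a difference of −0.45 (SE 0.12). All 12 high-dose values of LOXL1 were below the medium-dose median.

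C9H1orf21 had the smallest p of any named gene, 3.9e-04 before adjustment. Its level was 7.5, 7.95 and 8.2 in high-dose samples, against 8.0, 8.2 and 8.4 in medium-dose samples. The difference was −0.26 (SE 0.066), and its other 2 probe sets gave −0.22 and −0.21. NTRK3, the receptor for neurotrophin 3, differed by −0.26 (SE 0.076) through the probe set with the smallest p, and by −0.10 and −0.18 through its other 2 probe sets, with all 12 high-dose values below the medium-dose median for the first. PPP1R1A, an inhibitor of protein phosphatase 1 under the control of cyclic AMP, was 8.3, 9.0 and 9.3 in high-dose samples, against 8.8, 9.3 and 9.7 in medium-dose samples, a difference of −0.39 (SE 0.12). For these genes the high-dose means were close to the control means, which were 7.99 for C9H1orf21, 8.08 for NTRK3 and 8.92 for PPP1R1A.

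DSE, which converts chondroitin to dermatan sulfate, differed by −0.34, and NREP, a small protein of regenerating neurons, by −0.27 at a high level (11.21 ± 0.21 in high-dose and 11.42 ± 0.15 in medium-dose samples). DSE was dim, at 5.09 in high-dose and 5.39 in medium-dose samples, and differed by −0.15, −0.05, −0.73 and −0.70 in S2 to S5. GRK4, a kinase that desensitises G protein-coupled receptors, differed by −0.18, and PPRC1, a coactivator of mitochondrial biogenesis, by −0.17. RNF185, a ubiquitin ligase of the endoplasmic reticulum, differed by −0.22, SERTAD2, a transcriptional coregulator, by −0.17, and GSE1, LRRC57 and TMEM169 by −0.27, −0.25 and −0.22. Other probe sets of GSE1, GRK4 and RNF185 did not all share the sign, at 0.01 and −0.14, 0.04 and −0.09, and 0.06. CD93, a receptor of endothelium and myeloid cells, was 8.8, 9.55 and 9.9 in high-dose samples, against 9.1, 9.8 and 10 in medium-dose samples (difference −0.29, SE 0.094). Its difference came mainly from S2 and S4 (−0.33 and −0.77), against 0.05 in S3 and −0.05 in S5, and a second CD93 probe set gave 0.09.

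**Figure D2:**
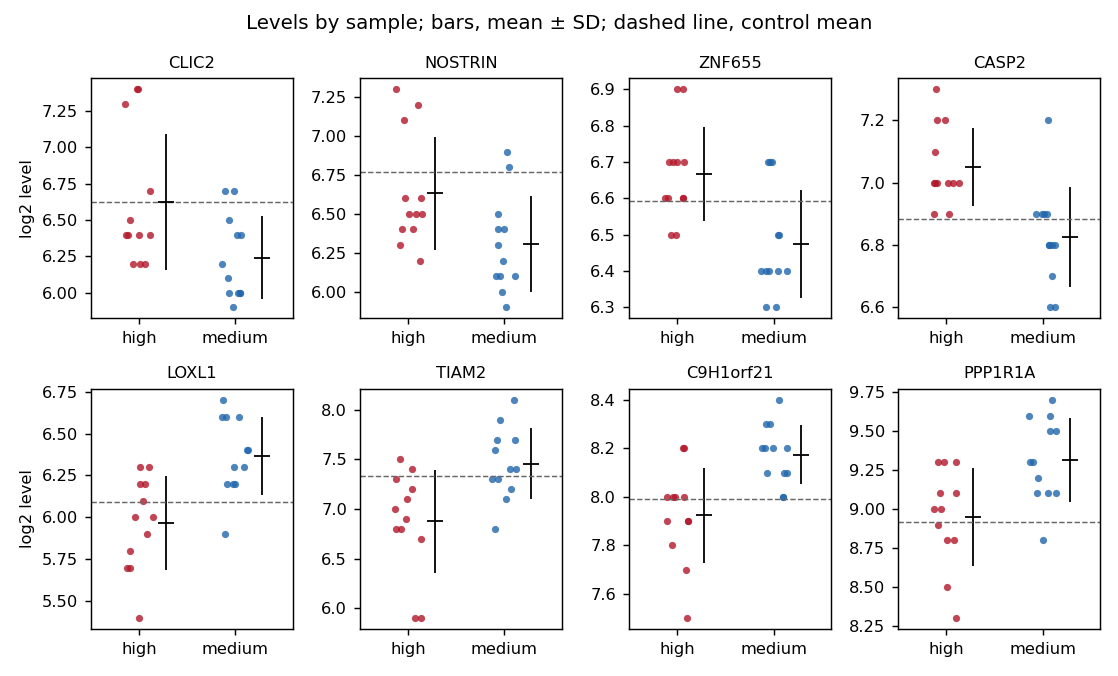
Log2 level (y axis) of 8 genes in each of 12 high-dose (left, red) and 12 medium-dose (right, blue) samples, with mean ± SD beside the points and the control mean as a dashed line. CLIC2, NOSTRIN, ZNF655 and CASP2 lie higher and LOXL1, TIAM2, C9H1orf21 and PPP1R1A lower in high-dose samples; the groups overlap in every panel.

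No gene of any list passed adjustment, so lists are described by counts and medians. Interferon response and antigen presentation genes lay almost all on the higher side in high-dose samples. Of 75 genes listed, 46 were measured: 43 were above 0 and 3 below, where 50.3% of all probe sets were above 0. At an unadjusted p under 0.05, 14 of the 46 were higher, against 2.48% of all probe sets, and 0 were lower. The median difference was 0.26, against 0.0006 over all probe sets, with a range of −0.03 to 0.89. Many of these genes are switched on together in the same cells, so the 46 are not independent, and the list was drawn up with earlier results of these arrays known.

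The higher values were held by a few animals. The mean level of the 46 interferon response and antigen presentation genes was 7.45 ± 0.54 in high-dose and 7.22 ± 0.33 in medium-dose samples (SD, n = 12 each). High-dose samples ran from 6.99 through a median of 7.17 to 8.51, and medium-dose samples from 6.91 through 7.08 to 8.05. High-dose replicates 10, 11 and 12, at 8.51, 8.31 and 8.05, stood well above the next high-dose sample at 7.58, and medium-dose replicate 11, at 8.05, stood above the next medium-dose sample at 7.62. All 4 of these animals were in S4 or S5. The other high-dose and medium-dose samples overlapped between 6.99 and 7.58.

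The difference of the interferon list mean was uneven over set codes. It was 0.69 in S4, where 3 high-dose samples averaged 7.97 (7.10 to 8.51) and 3 medium-dose samples averaged 7.28 (7.09 to 7.40). It was 0.20 in S2, 0.03 in S3 and 0.21 in S5. Without S4 the median difference of the list was 0.14, and leaving out single samples moved it between 0.20, without high-dose replicate 10, and 0.33, without high-dose replicate 9. Control samples averaged 7.63 ± 0.57 (SD, n = 12), and in S4 all 3 controls lay at 8.05 or above. Against controls, in comparisons that share the same 12 control arrays, the median difference of the list was −0.09 for the high dose and −0.37 for the medium dose.

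**Figure D3:**
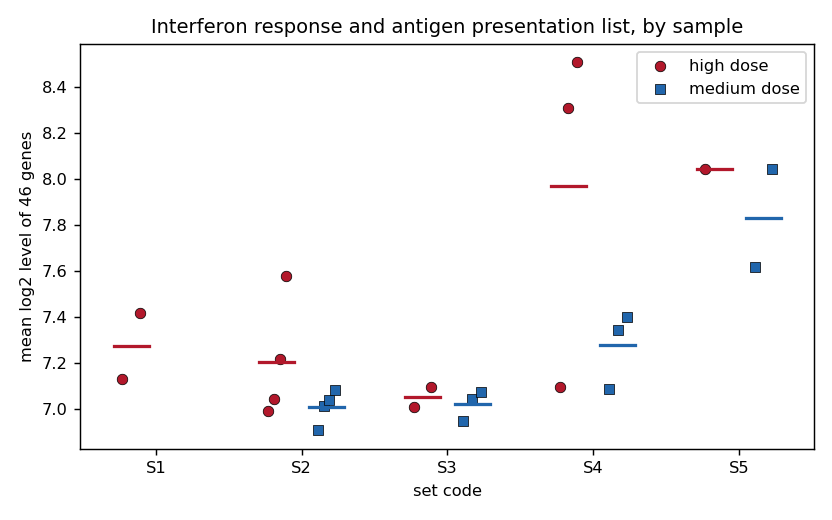
Mean log2 level of 46 interferon response and antigen presentation genes (y axis) in each high-dose (red circles) and medium-dose (blue squares) sample, by set code (x axis), with bars at the group means. In S4, 2 of 3 high-dose samples lie above 8.3 and the 3 medium-dose samples below 7.5, while in S3 the groups lie within 0.2 of each other; S1 holds no medium-dose sample.

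Among antigen presentation genes, PSME2, a subunit of the proteasome activator that shapes peptides for presentation, had the smallest unadjusted p. It was 8.0, 8.2 and 9.0 in high-dose samples, against 7.8, 8.05 and 8.7 in medium-dose samples (difference 0.28, SE 0.10, adjusted p = 0.811). SLA-2, a classical class I molecule, differed by 0.39 (SE 0.15), and TAPBP, the tapasin chaperone that holds class I molecules at the peptide transporter, by 0.19 (SE 0.076). B2M, the light chain of every class I molecule, averaged 12.40 ± 0.59 in high-dose and 12.11 ± 0.46 in medium-dose samples, a difference of 0.35 (SE 0.15) for its brightest probe set. Its other 8 probe sets ranged from −0.63 to 0.29. SLA genes are close paralogs whose probes may bind several members; without them the list median was 0.27, an alternative added after the data had been seen.

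Among the antiviral genes, ISG12(A), an interferon-induced mitochondrial protein, was 7.9, 8.95 and 11.2 in high-dose samples, against 8.1, 8.4 and 9.9 in medium-dose samples. Its difference was 0.74 (SE 0.29, adjusted p = 0.811), and 7 of 12 high-dose samples lay above the medium-dose median. ISG15, a ubiquitin-like modifier singled out after its values were seen, was 10.9, 10.7 and 9.9 in high-dose replicates 10, 11 and 12, and between 7.4 and 8.7 in the other 9. In medium-dose samples ISG15 was 10 in replicate 11 and between 7.4 and 8.7 in the other 11. GBP1, a guanylate-binding GTPase induced by interferon gamma, ranged from 5.8 to 9.9 in high-dose samples, against 5.0 to 8.5 in medium-dose samples. The GBP1 difference was 0.89 (SE 0.42), and its other 2 probe sets gave 0.40 and 0.51. At the other end of the list were OAS1 and STAT2, both at −0.03, and SAMHD1 at −0.02.

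Complement and microglial genes showed less. Of 23 complement and innate immunity genes measured out of 46 listed, 16 were above 0 and 7 below, with a median of 0.045. C4A, which tags surfaces for phagocytosis, differed by 0.46 (SE 0.21), by 0.90 in both S4 and S5 and by 0.03 and 0.07 in S2 and S3. SERPING1, the inhibitor of the first complement component, differed by 0.19, and CD55, which shields cells from complement, by 0.25. CFD, a protease of the alternative pathway, differed by −0.22. Of 15 microglia genes, 9 were above 0 and 6 below. CD74, the invariant chain of class II molecules, also counted in the interferon list, differed by 0.32, CTSS, a protease that trims it, by 0.26, TYROBP, a signalling adaptor, by 0.09, and P2RY12, a purinergic receptor of resting microglia, by −0.08.

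GPNMB, a glycoprotein of phagocytic cells, was high in 4 single animals of both doses. It was 8.1, 8.3 and 8.5 in high-dose replicates 2, 12 and 6, and between 5.4 and 5.9 in the other 9. In medium-dose samples it was 8.6 in replicate 7 and between 5.4 and 6.1 in the other 11. The difference was 0.41 (SE 0.36, adjusted p = 0.857), with −1.10 in S3 and 2.85 in S5.

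Oligodendrocyte and myelin genes also lay mostly on the higher side in high-dose samples. Of 27 listed genes, 19 were measured, 18 of them above 0 and 1, TSPAN2, at −0.10. At an unadjusted p under 0.05, 2 of 19 were higher, against 2.48% of all probe sets, and the median difference was 0.19. CNP, an enzyme of non-compact myelin, was 9.1, 9.85 and 11.1 in high-dose samples, against 8.7, 9.4 and 10.3 in medium-dose samples (difference 0.44, SE 0.21, adjusted p = 0.811), and a second probe set gave 0.45. CRYAB, a small heat-shock protein abundant in oligodendrocytes, differed by 0.36 (SE 0.17). MAG, an adhesion molecule between axon and myelin, differed by 0.27, and ENPP2, a secreted lysophospholipase also made by choroid plexus, by 0.28. MBP, the main protein of compact myelin, averaged 14.60 ± 0.13 in high-dose and 14.50 ± 0.12 in medium-dose samples. Its difference was 0.08 (SE 0.055) for the brightest probe set, the one counted in the list. The other 2 MBP probe sets gave −0.28 and −0.30.

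Of 13 oligodendrocyte precursor genes listed, only 3 were measured, and all 3 were above 0. OLIG1 and OLIG2, transcription factors of the lineage, differed by 0.18 and 0.15, and VCAN, a matrix proteoglycan, by 0.14. With the oligodendrocyte mean as a covariate these differences were 0.07, 0.03 and 0.01. The mean of the 19 oligodendrocyte and myelin genes was 10.50 ± 0.36 in high-dose and 10.26 ± 0.17 in medium-dose samples. High-dose values ran from 9.98 through 10.46 to 11.45 and medium-dose values from 10.07 through 10.24 to 10.49, and the highest was that of high-dose replicate 2. Without that sample the median difference of the list was 0.14. By set code the difference of the mean was 0.09, 0.44, 0.05 and 0.42 in S2 to S5. Control samples averaged 10.47 ± 0.30 (SD, n = 12), close to the high-dose mean. Against these shared controls, the median difference of the list was 0.04 for the high dose and −0.17 for the medium dose. In tissue pieces such as these, fewer cells of a type and less RNA per cell cannot be told apart.

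**Figure D4:**
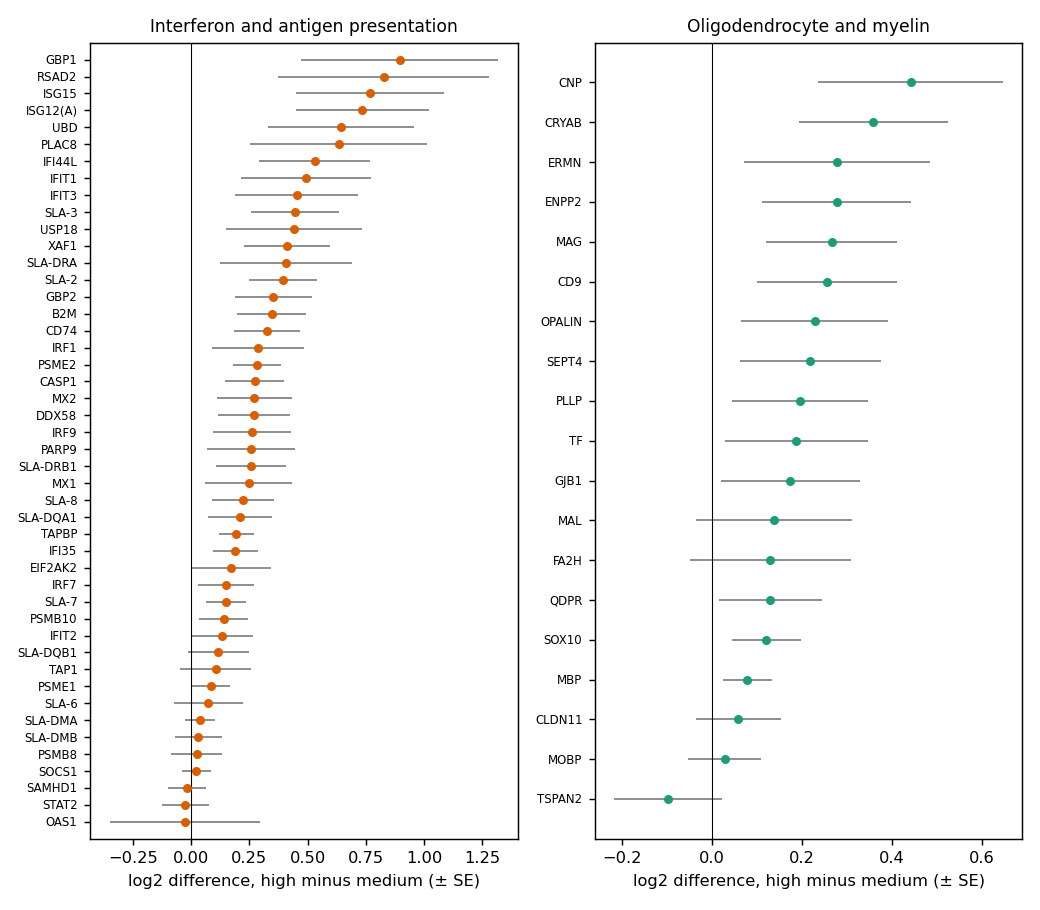
Log2 difference, high dose minus medium dose (x axis), with its standard error from limma, for each of 46 interferon and antigen presentation genes (left) and 19 oligodendrocyte and myelin genes (right), sorted. GBP1, RSAD2 and ISG15 lie furthest to the right on the left panel and CNP and CRYAB on the right panel.

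Hippocampal subfield genes lay mostly on the lower side. Of 8 hippocampal subfield genes measured out of 22, 7 were below 0 and 1 above, where 49.7% of all probe sets were below 0, with a median of −0.18. At an unadjusted p under 0.05 there were 0 of 8, against 5.98% of all probe sets. NEUROD1, a transcription factor of granule neurons, was 5.4, 6.5 and 7.3 in high-dose samples, against 5.5, 6.95 and 7.6 in medium-dose samples (difference −0.34, SE 0.23). Leaving out 1 set code moved the NEUROD1 difference between −0.05, without S4, and −0.48, without S5. PDYN, the prodynorphin peptide precursor of granule neurons, differed by −0.44 (SE 0.33), and NTF3, the ligand of NTRK3, by −0.30 (SE 0.21). In S2 to S5 the PDYN difference was −0.28, −0.80, 0.50 and −1.15. POU3F1, a transcription factor of pyramidal neurons, was the exception at 0.11. The list mean was 7.54 ± 0.23 in high-dose and 7.71 ± 0.08 in medium-dose samples (SD, n = 12 each), and 7.52 ± 0.26 in controls. High-dose replicate 2, with the highest oligodendrocyte mean, had the lowest subfield mean, 6.96, and the lowest neuron mean, 10.71. With the oligodendrocyte mean as a covariate the subfield median was −0.09, NEUROD1 was −0.18 and NTF3 was −0.07. Of 11 general neuron genes, 9 were below 0, with a median of −0.05, but that median was 0.053 with the same covariate and −0.01 without high-dose replicate 2. Of 7 interneuron genes, 5 were above 0 and 2 below, with a median of 0.03, which turned to −0.094 with the replicate and set blocks and to −0.051 without S2.

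**Figure D5:**
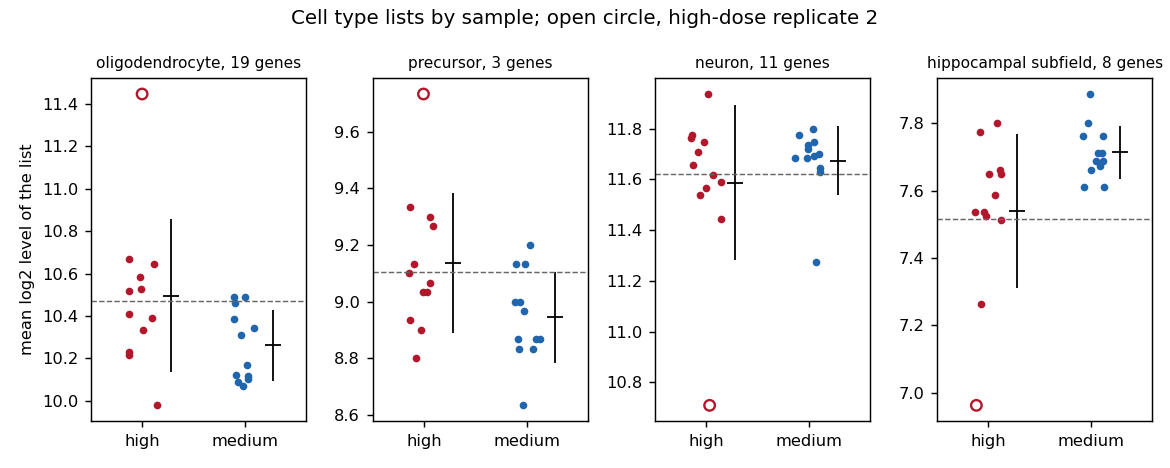
Mean log2 level (y axis) of 19 oligodendrocyte, 3 precursor, 11 neuron and 8 hippocampal subfield genes in each high-dose (left, red) and medium-dose (right, blue) sample, with mean ± SD beside the points and the control mean dashed. High-dose replicate 2, the open circle, lies at 11.45 for oligodendrocytes and 10.71 for neurons, outside all other samples drawn.

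Neurotrophin and growth factor signalling was split in direction. BDNF, the neurotrophin that supports synaptic plasticity, averaged 8.93 ± 0.37 in high-dose and 9.20 ± 0.36 in medium-dose samples (SD, n = 12 each), against 8.82 ± 0.23 in controls. Its difference was −0.23 (SE 0.14, adjusted p = 0.811), with 0.05, −0.47, −0.57 and 0.25 in S2 to S5. Of 26 BDNF and TrkB signalling genes measured, 12 were above 0 and 14 below. GRB2, an adaptor between receptors and RAS, differed by −0.12, PLCG1, a phospholipase that releases calcium, by −0.11, STAT3, a signal transducer, by 0.11 and GAB1, a docking protein, by 0.30. CREB1, a transcription factor at the end of the pathway, differed by −0.07. Of 21 growth factors and receptors, 9 were above 0 and 12 below. FGFR1 was 8.1, 8.3 and 8.4 in high-dose samples, against 8.0, 8.5 and 8.9 in medium-dose samples (difference −0.21, SE 0.076), while FGFR2, another receptor for fibroblast growth factors, was 8.5, 8.75 and 9.8 in high-dose samples, against 8.1, 8.55 and 9.1 in medium-dose samples (difference 0.26, SE 0.12). A second FGFR1 probe set gave 0.01. With the oligodendrocyte mean as a covariate GAB1 was 0.07 and FGFR2 0.13. STAT3, GRB2 and FGFR1 moved less, to 0.08, −0.10 and −0.18. TGFBR1, a receptor for transforming growth factor beta, differed by −0.17.

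Genes of lactoferrin uptake, iron and sialic acid differed little between the doses. LTF, which encodes lactoferrin itself, was below the filter at 4.59 ± 0.18 in high-dose and 4.53 ± 0.21 in medium-dose samples. LRP8, a lipoprotein receptor that binds reelin, had the smallest p of 17 iron handling and lactoferrin receptor genes. It was 9.0, 9.4 and 9.5 in high-dose samples, against 9.1, 9.5 and 9.7 in medium-dose samples (difference −0.17, SE 0.061). TFRC, the transferrin receptor, averaged 4.92 ± 0.20 in high-dose and 4.92 ± 0.17 in medium-dose samples, a dim level at the filter cut of log2 4.92. FTH1 and FTL, the ferritin chains that store iron, differed by 0.03 and 0.11, IREB2, which senses iron, by 0.11, and HAMP, the iron hormone hepcidin, by 0.12. Of 13 sialylation and NCAM genes, 9 were above 0 and 4 below. GNE, the first enzyme of sialic acid synthesis, and NCAM1, the adhesion molecule that carries polysialic acid, both differed by −0.10, ST8SIA4, a polysialyltransferase, by 0.06 and ST3GAL4 and ST6GALNAC4, other sialyltransferases, by 0.09 and 0.06. NTRK2, ST8SIA2 and ARC were not analysed here, because no probe set carried their symbol alone.

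Receptors and peptides of neurons gave a few single genes. Of 18 monoamine, acetylcholine, adenosine and peptide receptors, 9 were above 0 and 9 below. The somatostatin receptors SSTR5 and SSTR1 differed by 0.16 (SE 0.054) and 0.17 (SE 0.058), ADORA1, the inhibitory adenosine receptor, by −0.15 and OXTR, the oxytocin receptor, by 0.12. Of 15 neuropeptide genes, 8 were above 0 and 7 below. CARTPT, a peptide precursor, was 8.1, 9.65 and 11.2 in high-dose samples, against 7.9, 9.2 and 10.2 in medium-dose samples (difference 0.72, SE 0.26, adjusted p = 0.811). CARTPT lay above the medium-dose median in 11 of 12 high-dose samples, but in S4 its difference was −0.13. CHGA and PNOC differed by 0.10 and 0.09.

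Vessel, cytoskeletal and activity genes showed no common direction. Of 21 endothelium and vessel wall genes, 10 were above 0 and 11 below, with a median of −0.01. At an unadjusted p under 0.05, 2 were higher, CLIC2 and NOSTRIN, and 2 lower, CD93 and ACTA2, against 2.48% higher and 3.49% lower of all probe sets. ACTA2, the actin of smooth muscle and pericytes, was 7.6, 8.1 and 9.4 in high-dose samples, against 7.9, 8.75 and 9.3 in medium-dose samples (difference −0.50, SE 0.24), and it lay lower in each of S2 to S5. Of 63 actin cytoskeleton genes, 25 were above 0 and 38 below. ARPC5, a subunit of the complex that branches actin, differed by −0.27, SH3PXD2A, a scaffold of podosomes, by −0.19, ACTB by −0.14 and FSCN1, which bundles actin, by 0.13. Of 23 immediate early genes, 13 were above 0 and 10 below. IER5 differed by −0.28, IER2 by 0.16, ZFP36, which destabilises mRNA, by 0.15, SGK1, a kinase induced by glucocorticoids, by 0.18, and FOS by 0.11 (SE 0.17).

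Metabolic lists leaned to 1 side by very small amounts. Of 37 glycolysis and energy genes, 32 were below 0 and 5 above, where 49.7% of all probe sets were below 0, but the median was only −0.04, and it was 0.01 with the oligodendrocyte covariate. GYS1, the glycogen synthase, and PKM, the last enzyme of glycolysis, differed by −0.10 and −0.11, and IDH1 and PDHB by −0.09 and −0.07. Of 58 cytosolic ribosomal protein genes, 47 were above 0 and 11 below, with a median of 0.03 that turned to −0.036 with the replicate and set blocks. At an unadjusted p under 0.05 there were 0 of 58, against 5.98% of all probe sets. RPS15, RPS27 and RPL23 differed by 0.14, 0.12 and 0.09, and RPL37 by −0.15. TTR, the thyroxine carrier of choroid plexus, GPX1, a selenoenzyme, and AQP3, a water channel, spread widely between animals within a dose and differed by −0.17 (SE 0.32), −0.34 (SE 0.37) and −0.48 (SE 0.47). GFAP, the filament of astrocytes, differed by 0.11 (SE 0.10).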

How the data were processed

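What the authors deposited is a log2 signal per probe set and array, rounded to 1 decimal; the submitters' processing notes name Affymetrix Expression Console 1.1 and RMA. RMA corrects background, brings arrays to a common distribution and merges the probes of a set, so a shift of most transcripts together cannot be seen. Raw intensities were not used here, and precision is limited by how many arrays there are.

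After removal of 124 array controls, dim probe sets were dropped where the mean over all samples lay under the 25th percentile (log2 4.92). Symbols came from the array annotation, which gave exactly 1 to 10069 probe sets, several to 198 and none to 13732; 9961 of the first matched RefSeq by gene ID. The comparison was fitted by limma 3.58.1 (lmFit, eBayes) in R 4.3.3 over all 36 samples, with set code as a fixed block, two-sided, adjusted by Benjamini-Hochberg over 18006 probe sets. Controls thus entered the estimate of spread and the set effects of S1 to S5. List values used 1 probe set per gene, the one with the highest mean, among 42 lists. The named genes were 15 per direction by p, up to 4 per list described and a set of fixed genes. The members and lists were chosen with earlier results of these data known. Replicate numbers did not pair samples.

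Alternatives were other blocks: none, replicate number, random set, and whether the spike-in Dap was above log2 6. Further alternatives were the 24 samples alone, S2 to S5 alone, other filters and normalisations, array weights, robust eBayes and 1 probe set per gene. Cell-type covariates, permutation within set codes (100000 resamples), and leaving out each set or sample were also run. The model was tested on simulated data of 18006 probe sets with independent noise for high minus medium dose. In each of 5 runs 200 probe sets were changed, by 1.25-, 1.5-, 2- or 3-fold. The model recovered 59.6% of 1.25-fold and 96.4% of 1.5-fold changes. The Benjamini-Hochberg cut is looser where many probe sets change, so these shares do not give the recovery in the real data. Figures used Python 3.11.15 and matplotlib 3.10.9.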

Additional observations from a re-analysis of the deposited data

How the results depend on the processing

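No result past the threshold existed to be lost. The 30 genes named by p kept their direction under each of 45 other settings where they were tested. They were picked by small p in the same samples that most settings share, so a reversal was unlikely from the start. The unnamed probe set with the smallest p was the 1 probe set called with array weights (smallest adjusted p 0.0254), with the choroid plexus covariate (0.0259) and without medium-dose replicate 11 (0.0072), and 0 were called under the other settings. Leaving out single samples moved the number called between 0 and 1, the smallest adjusted p between 0.0072 and 0.981, and the number at an unadjusted p under 0.05 between 708, without high-dose replicate 7, and 1915, without medium-dose replicate 1. That number was 1076 as reported; it was 2560 without S2, 554 without S3, 1672 with array weights, 701 with the oligodendrocyte covariate, 715 with the filter at the 50th percentile and 292 with 1 probe set per gene; the last 2 settings tested fewer probe sets, and for the others the cause was not tested. Samples with the same replicate number did not deviate together (pair correlations −0.447 to 0.202, above 0.1 in 2 of 12), so the numbers were not taken as pairs. Exchanging the set block for a replicate block gave 1017 probe sets at an unadjusted p under 0.05 and a smallest adjusted p of 0.522; with both blocks these were 1785 and 0.101, RPL23 reversed to −0.028 and the oxidative phosphorylation median, −0.003 as reported, was −0.095, causes not tested. List medians that moved by more than the spread between samples also included iron handling (0.083 without S2), receptors (−0.046 with the filter at the 50th percentile) and stress hormone and thyroid signalling (0.071 without S2). Medians near 0 changed sign more often: of the 18 lists described besides interneurons, 8 kept their sign under all settings run, and 10 changed it in at least 1 setting other than a left-out sample. Among these were cytosolic ribosomal proteins (−0.036 with both blocks), neuron (0.053) and glycolysis (0.01, both with the oligodendrocyte covariate), immediate early genes (−0.041 with the filter at the 50th percentile), neuropeptides (−0.078 without S2) and microglia (−0.024 without S4). The interferon list median stayed between 0.14 and 0.33 and the oligodendrocyte list median between 0.10 and 0.26 over the settings run.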

Other observations

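Several genes outside the lists described above had an unadjusted p under 0.05, and none passed adjustment. KLF9, a transcription factor induced by glucocorticoid and thyroid hormone, differed by −0.24 between the high and the medium dose, and HES1, a target of Notch signalling, by −0.20. PLXNA2, a semaphorin receptor of growing axons, differed by −0.25 and CCND2, a cyclin of neural progenitors, by −0.21. SLC1A3, a glutamate transporter of astrocytes, differed by 0.39, TFEB, a transcription factor of lysosome genes, by 0.23, and SF1, a splicing factor, by 0.48. SLC1A3 was the highest of 15 astrocyte genes measured, of which 8 were above 0 and 7 below, with a median of 0.01. IFNAR2, a subunit of the type I interferon receptor, differed by 0.15, and CXCL12, a chemokine made by vessels and meninges, by −0.23. These genes were singled out after their values were seen.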
